A study of Mus musculus with 14 samples.

Results

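The genes described are 9 regulators of trophoblast stem cells: Cdx2, Elf5, Eomes, Tfap2c, Gata2, Gata3, Esrrb, Tead4 and Ets2. They were listed by name, with earlier results of these data known, by a rule that uses no measured values, and all 9 were found by identifier among the 55416 gene identifiers of the count table. All 9 passed the filter on low counts that left 18430 genes for testing. RNA was sequenced from mouse stem cell lines treated for 12 h with STM2457, an inhibitor of the RNA methyltransferase METTL3, at 50 µM, or kept in the solvent DMSO for comparison. METTL3 methylates adenosines in messenger RNA, giving the N6-methyladenosine (m6A) mark. The trophoblast line (TSC), labelled a trophoectoderm stem cell, gave 2 libraries with STM2457 and 2 with DMSO. The epiblast stem cell line (EpiSC) gave 2 libraries per arm, and the extraembryonic endoderm line (XEN) gave 3 per arm. TSC and XEN cells are labelled WT, and EpiSC cells carry the genotype XmolXmus-<delta>Tsix. All lines share a hybrid Mus molossinus × Mus musculus background. TSC were grown in RPMI medium conditioned by embryonic fibroblasts, with serum and Fgf4. EpiSC were grown with serum replacement, Fgf2 and Activin A, and XEN cells in DMEM with serum. Each lineage is therefore 1 line with its own medium, and lineage, medium and, for EpiSC, genotype cannot be told apart in any comparison between lines. Whether replicates came from separate cultures is not stated in the labels, so the p-values rest on a spread between samples that may be technical.

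Trophoblast stem cells are derived from the trophectoderm, the outer layer of the blastocyst that later forms the placenta, and FGF4 with signals from fibroblasts keeps them dividing. In the embryo Tead4, the DNA-binding partner of the Hippo pathway coactivators YAP and TAZ, acts upstream of the homeobox gene Cdx2. Cdx2, the T-box gene Eomes and the ETS-family gene Elf5 then hold the trophoblast state together. Tfap2c, encoding an AP-2 factor, Gata2 and Gata3, encoding zinc finger factors, and Ets2, encoding a second ETS-family factor, act with them, and Esrrb encodes an orphan nuclear receptor that FGF signalling sustains. In GENCODE the genes are Cdx2 (ENSMUSG00000029646, chromosome 5), Elf5 (ENSMUSG00000027186, chromosome 2), Eomes (ENSMUSG00000032446, chromosome 9), Tfap2c (ENSMUSG00000028640, chromosome 2), Gata2 (ENSMUSG00000015053, chromosome 6), Gata3 (ENSMUSG00000015619, chromosome 2), Esrrb (ENSMUSG00000021255, chromosome 12), Tead4 (ENSMUSG00000030353, chromosome 6) and Ets2 (ENSMUSG00000022895, chromosome 16). Eomes also marks the primitive streak and Esrrb also belongs to the network of naive pluripotency, so neither is restricted to trophoblast.

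Total counts per library ranged from 17909934 to 20354242 in TSC, from 18640099 to 21097380 in EpiSC and from 6826496 to 10024628 in XEN. Replicates differed more in XEN than in the other lines: the chi-square per degree of freedom between replicate count profiles lay between 10.3 and 26.8 in XEN and between 2.25 and 5.32 in TSC and EpiSC. Each gene had 1 estimate of its spread, shared by all 14 libraries. Same-numbered XEN libraries of the 2 arms deviated together, with residual correlations of 0.22, 0.376 and 0.337, whereas those of TSC and EpiSC did not (-0.003 and -0.012). A second fit with the replicate number as a block in XEN therefore stands beside every result of a regulator whose call it changes; for other lists only its counts are given. Throughout, a called gene is one whose p in edgeR's quasi-likelihood test, adjusted after Benjamini and Hochberg over all tested genes, was under 0.05. Levels are counts scaled to library size (CPM) with trimmed-mean scaling, given as mean ± SD, and fold changes are log2 ± SE.

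In TSC all 9 regulators were present, at 31.9 to 546 CPM on average in DMSO. Divided by the exon length of each gene so that genes can be compared, Tfap2c stood highest, at 100 ± 6.12 CPM per kb, followed by Esrrb at 90.2 ± 0.115 and Eomes at 81.2 ± 4.42 CPM per kb (SD, n = 2). Ets2 followed at 44.8 ± 4.06, Cdx2 at 31.8 ± 1.57 and Elf5 at 28.6 ± 0.992 CPM per kb. Gata3 at 27.7 ± 2.31 and Tead4 at 27.6 ± 1.8 CPM per kb had overlapping ranges, as had Elf5 and Gata3. Gata2 was lowest, at 5.92 ± 0.303 CPM per kb, and the remaining neighbours in this order did not overlap. Markers of the lineage were present in this line. Of 18 other trophoblast stem cell genes, Plet1, a cell surface marker, averaged 276 ± 0.127 CPM in TSC, and Bmp4, a secreted signal of this lineage, 238 ± 7.45 CPM. Not all of the 18 were highest in TSC in DMSO. Klf5 averaged 39.7 ± 2.66 CPM in TSC against 199 ± 9.65 CPM in XEN, and Sall4 107 ± 3.43 against 270 ± 35.1 CPM. Zfp281 averaged 65.9 ± 7.47 CPM in TSC, 70.1 ± 4.29 CPM in XEN and 81.5 ± 0.263 CPM in EpiSC. Tfap2a was low in TSC, at 2.13 ± 0.888 CPM. Pou5f1, the defining gene of the epiblast, had 0 counts in all 4 TSC libraries. It was the only 1 of 12 primed pluripotency markers at 0 there. In each arm 3 of the 12 had 3 or fewer counts: Pou5f1 and Fgf5 in both, Otx2 with DMSO and Tdgf1 with STM2457. Pou3f1, a POU factor of the epiblast, averaged 242 ± 7.15 CPM in TSC against 121 ± 6.24 CPM in EpiSC in DMSO.

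**Figure D1:**
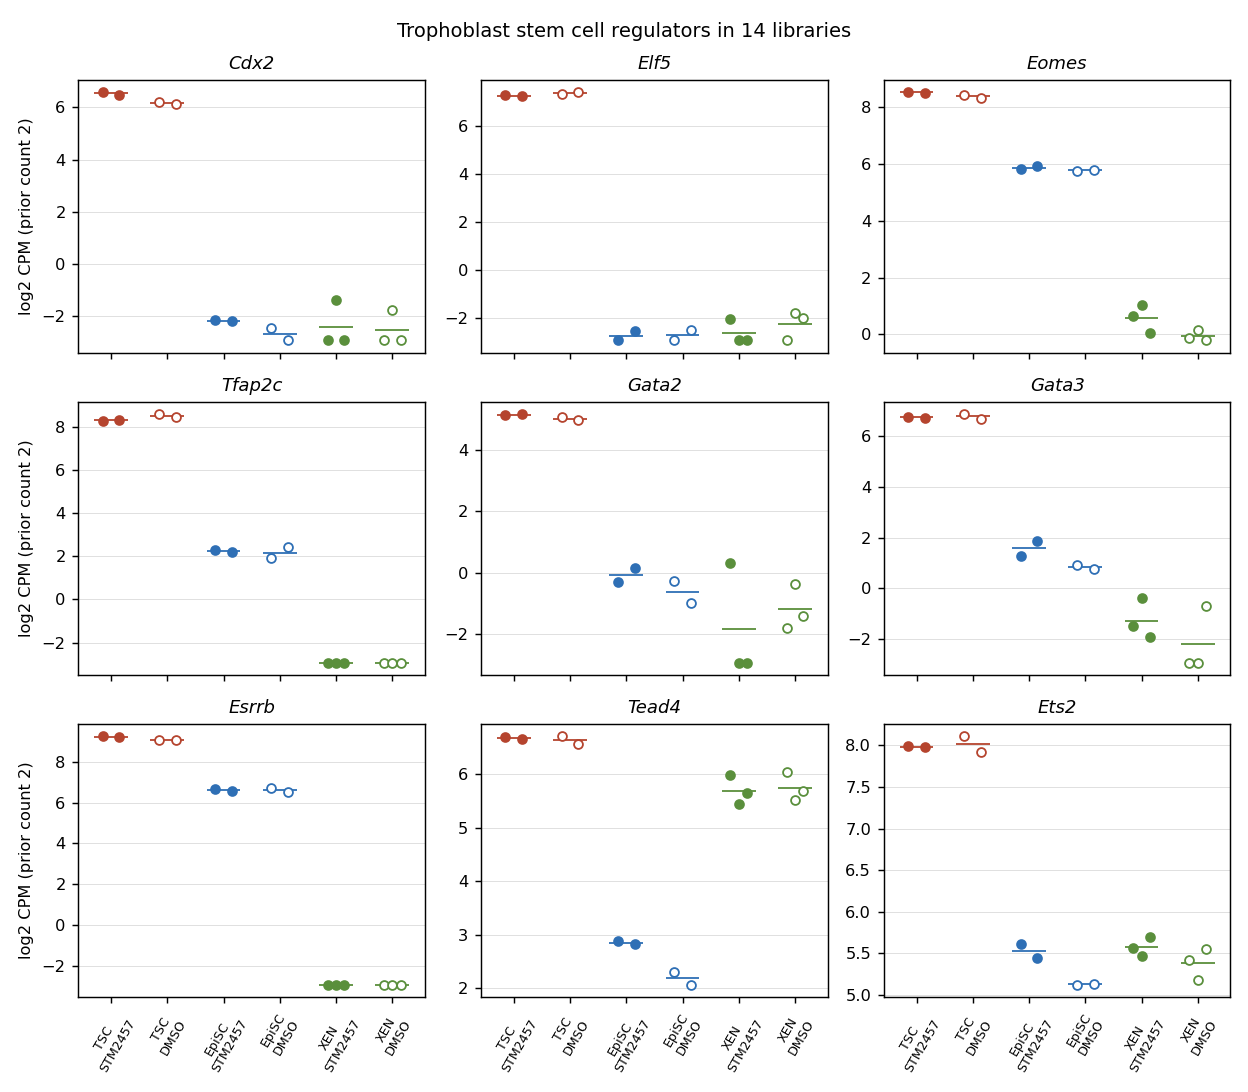
Level of each regulator in each of the 14 libraries, as log2 CPM with a prior count of 2 with a separate vertical axis in each panel. Filled points are STM2457 libraries, open points DMSO libraries and bars group means. TSC lies above both other lines in all 9 panels, Tead4 has XEN close below TSC, and Eomes and Esrrb keep EpiSC at an intermediate level.

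The order of the regulators differed between lines. In EpiSC, Esrrb at 16.3 ± 1.31 and Eomes at 13.2 ± 0.0762 CPM per kb came first in DMSO, followed by Ets2 at 6.04 ± 0.0333 CPM per kb (SD, n = 2). Tead4 and Tfap2c stood at 1.23 ± 0.15 and 1.21 ± 0.318 CPM per kb with overlapping ranges, Gata3 at 0.414 ± 0.0324 and Gata2 at 0.0994 ± 0.0417 CPM per kb. Cdx2 and Elf5 had 1 count each over both DMSO libraries of EpiSC. In XEN only Tead4, at 15 ± 2.88 CPM per kb, Ets2, at 7.25 ± 0.92, and Eomes, at 0.199 ± 0.0304, had at least 15 counts in an arm (SD, n = 3). The other 6 regulators had 0 to 7 counts over the 3 DMSO libraries of XEN. Esrrb and Tfap2c had 0 counts in all 6 XEN libraries. For that line these values show only that transcripts were not detectable at this depth. In bulk libraries of this kind, fewer cells with a transcript and less of it per cell cannot be told apart.

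All 9 regulators were higher in TSC than in EpiSC in DMSO, where 54.4% of all tested genes were called, 27% higher and 27.4% lower in TSC. The smallest differences were those of Esrrb, at 545 and 546 CPM in TSC against 104 and 93.1 CPM in EpiSC (log2 2.47 ± 0.119, adjusted p = 1.52e-09, edgeR), and of Eomes, the T-box gene. Eomes had 350 and 324 CPM in TSC against 54.6 and 55.1 CPM in EpiSC (log2 2.62 ± 0.123, adjusted p = 1.82e-11, edgeR). Ets2 followed with a log2 difference of 2.89 ± 0.132 and Tead4 with 4.49 ± 0.2. The GATA genes and Tfap2c differed more, Gata2 by 5.88 ± 0.441, Gata3 by 6.06 ± 0.258 and Tfap2c by 6.37 ± 0.178 on the log2 scale. For Cdx2, 2920 counts in TSC stood against 1 in EpiSC, a CPM ratio of 2980 with a 95% counting interval of 534 to 118000. For Elf5, 6823 counts stood against 1, a ratio of 6960 with an interval of 1250 to 275000, and these intervals cover counting error only. Cdx2 and Elf5 passed the count filter through TSC alone, so their difference from the other lines was fixed by the filter.

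Against XEN, too, all 9 were called higher in TSC, where 72.5% of tested genes were called, 36.5% higher and 36% lower in TSC. Tead4 was the exception in size. It had 104 and 94.9 CPM in TSC against 65.6, 45.5 and 51.2 CPM in XEN in DMSO, with no overlap, a log2 difference of 0.88 ± 0.151 (adjusted p = 6.18e-05, edgeR). This direction rests on the scaling: with scaling to ribosomal protein genes, which moves the median of all genes by -1.04 between these lines, the value for Tead4 was -0.18 and was not called (adjusted p = 0.329, edgeR). A change of scaling shifts all genes together, so the place of Tead4 relative to that median could not differ between the scalings. Ets2 had 276 and 242 CPM in TSC against 42.6, 36.3 and 46.8 CPM in XEN (log2 2.62 ± 0.116, adjusted p = 4.66e-12, edgeR). Eomes totalled 13692 counts in TSC against 17 in XEN, a CPM ratio of 412 with a 95% counting interval of 257 to 708. Gata2 totalled 1296 counts against 7, a ratio of 94.8 (45.9 to 236). Gata3 totalled 4474 against 4, a ratio of 573 (223 to 2100), and 1 XEN library held all 4 of those counts. For Tfap2c and Esrrb, with 0 counts in XEN, TSC stood at least 2560-fold and at least 3780-fold higher, taking 3 counts over the XEN group as the limit. Cdx2 and Elf5 had 1 and 2 counts in XEN, giving ratios of 1490 (268 to 59100) and 1750 (483 to 14400).

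EpiSC and XEN differed from each other in 5 of the 7 regulators with enough counts in either line, where 71.7% of tested genes were called, 36.6% higher and 35.1% lower in EpiSC. Eomes (log2 6.05 ± 0.182), Gata3 (3.05 ± 0.622), Tfap2c and Esrrb were higher in EpiSC, with Tfap2c at least 31-fold and Esrrb at least 682-fold. Without the third DMSO library of XEN, which held all 4 counts of Gata3, its fitted difference was 7.71. Tead4 went the other way, with 4.82 and 4.06 CPM in EpiSC against 65.6, 45.5 and 51.2 CPM in XEN (log2 -3.61 ± 0.193, adjusted p = 5.37e-11, edgeR). Ets2 had 34.8 and 35.0 CPM in EpiSC, both below the 3 XEN libraries, but its log2 difference of -0.27 ± 0.12 did not pass the test (adjusted p = 0.0553, edgeR). With the replicate block in XEN it was called, at -0.26 (adjusted p = 0.00933, edgeR), in a fit that called 77.9% of genes, and over all alternatives its adjusted p ranged from 5.52e-06 to 0.82. Gata2 did not pass the test (log2 0.65 ± 0.886, adjusted p = 0.525, edgeR). These line comparisons share their DMSO libraries, so their values are not independent of each other.

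Promoter sequences were matched for 7 of the 9 regulators, in 10 windows of 250 bases upstream of RefSeq gene starts on build GRCm38.p6; Tfap2c and Tead4 had no window. They were searched on both strands for the letters bound by the regulators' own families. The windows shown are those of Cdx2 and Elf5, the regulators at 1 count in EpiSC, and of Gata3 and Ets2, whose STM2457 libraries lay above the DMSO libraries in EpiSC. Each runs 5′ to 3′ along the gene's strand and ends at the base before the start, with motif matches in capitals.
Cdx2 (chr5:147307250-147307499, minus strand): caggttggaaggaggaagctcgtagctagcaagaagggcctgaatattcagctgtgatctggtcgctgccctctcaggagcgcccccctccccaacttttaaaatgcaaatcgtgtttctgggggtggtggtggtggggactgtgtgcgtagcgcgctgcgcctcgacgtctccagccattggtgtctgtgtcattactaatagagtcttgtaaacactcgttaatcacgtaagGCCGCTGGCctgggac
Elf5, the second annotated start (chr2:103423818-103424067, plus strand): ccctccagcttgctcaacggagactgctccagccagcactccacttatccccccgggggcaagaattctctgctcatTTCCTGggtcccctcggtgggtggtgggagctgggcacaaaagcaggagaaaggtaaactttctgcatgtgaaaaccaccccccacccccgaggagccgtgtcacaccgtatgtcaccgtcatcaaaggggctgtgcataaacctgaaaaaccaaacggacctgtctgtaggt
Gata3 (chr2:9878601-9878850, minus strand): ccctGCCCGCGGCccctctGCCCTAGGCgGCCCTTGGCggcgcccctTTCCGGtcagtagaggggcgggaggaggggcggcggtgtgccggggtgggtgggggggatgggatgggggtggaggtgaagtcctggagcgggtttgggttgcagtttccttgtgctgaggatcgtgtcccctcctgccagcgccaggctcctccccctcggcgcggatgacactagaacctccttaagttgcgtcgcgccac
Ets2 (chr16:95702157-95702406, plus strand): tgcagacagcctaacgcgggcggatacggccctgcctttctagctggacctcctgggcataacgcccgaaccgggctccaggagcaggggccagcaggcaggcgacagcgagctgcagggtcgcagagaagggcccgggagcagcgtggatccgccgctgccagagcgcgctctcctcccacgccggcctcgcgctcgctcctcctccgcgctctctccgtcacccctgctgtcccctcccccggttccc
The AP-2 motif GCCNNNGGC occurred once in the Cdx2 window, at -16 to -8 from the start, and 3 times near the far end of the Gata3 window. It was found in 3 of the 10 regulator windows, those of Cdx2, Gata2 and Gata3, and in 13.7% of 32851 windows of all genes. The ETS motif CCGGAA or CAGGAA was found in the windows of Elf5 and Gata3, 2 of 10, and in 35.1% of all windows; the capitals of Elf5 show it on the opposite strand. The TEAD motif GGAATG was found in 2 of 10 windows and in 12.6% of all. The 2 were a window of Gata2 and that of the first annotated start of Elf5, neither of which is shown. No window held the GATA motif AGATAA or TGATAA (16.6% of all), the CDX motif TTTATNG (9.81%), the T-box motif AGGTGTGA (1.12%) or the ESRRB motif AAGGTCA (4.08%). The Ets2 window held none of the 7 motifs but 25 CpG dinucleotides, against 19 in that of Gata3, 13 in that of Cdx2, 8 in that of Elf5 and a median of 6 over all windows. These matches describe letters in the windows only.

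The treatment comparison asked whether METTL3 inhibition moved the regulators in the line that uses them. In TSC none of the 9 was called with STM2457, where 0.966% of all tested genes were called, and 1 had an unadjusted p under 0.05, as had 13.4% of all genes. Their log2 fold changes lay between -0.23 and 0.36 with a median of 0.03, against a median of 0 over all genes. Summed over the 9 genes, the level was 2020 to 2050 CPM in the STM2457 libraries and 1940 to 2050 CPM in the DMSO libraries.

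Cdx2 had the largest log2 fold change of the 9. It stood at 95.6 and 89.6 CPM with STM2457 against 74.5 and 69.5 CPM with DMSO in TSC, with both treated libraries above both controls. The log2 fold change was 0.36 ± 0.168, with a 95% interval of 0.01 to 0.72, and missed the threshold (adjusted p = 0.358, edgeR). With the replicate block in XEN, which leaves the fold at 0.36, it was called (adjusted p = 0.00553, edgeR), and 15.4% of all tested genes were called in that fit. Over all alternatives the adjusted p of Cdx2 ranged from 0.000268 to 0.894. The fold of Cdx2 was positive in each of the 22 alternatives. It was also called with the block in all 3 lines, where 11% of genes were, and with the TSC libraries fitted alone, where 30.2% were.

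The partners of Cdx2 in the trophoblast core had smaller fold changes. Elf5 had 159 and 154 CPM with STM2457 against 164 and 172 CPM with DMSO in TSC (log2 -0.11 ± 0.137, adjusted p = 0.815, edgeR). Eomes had 372 and 368 CPM with STM2457 against 350 and 324 CPM with DMSO (log2 0.13 ± 0.115, adjusted p = 0.686, edgeR). The arms did not overlap for either gene, with Elf5 lower and Eomes higher, but neither difference passed the test. Tfap2c had 312 and 319 CPM with STM2457 against 385 and 353 CPM with DMSO, again without overlap (log2 -0.23 ± 0.134, adjusted p = 0.514, edgeR). Its 95% interval ran from -0.52 to 0.06. Esrrb, the regulator with the most counts, had 610 and 594 CPM with STM2457 against 545 and 546 CPM with DMSO (log2 0.14 ± 0.113, adjusted p = 0.657, edgeR). The interval of Esrrb, from -0.10 to 0.39, leaves out a change of 1 log2 unit in either direction.

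Gata2 had 34.6 and 35.4 CPM with STM2457 against 33.1 and 30.8 CPM with DMSO in TSC, a log2 difference of 0.13 ± 0.295. Gata3 had 108 and 107 CPM with STM2457 against 117 and 104 CPM with DMSO, a difference of -0.04 ± 0.184. The arms of Gata3 overlapped, as did those of Tead4 and Ets2, whereas those of Gata2 did not. Tead4 had 103 and 101 CPM with STM2457 against 104 and 94.9 CPM with DMSO, a difference of 0.03 ± 0.162. Ets2 had 253 and 253 CPM with STM2457 against 276 and 242 CPM with DMSO, a difference of -0.03 ± 0.121. Adjusted p-values in edgeR were at least 0.936 for these 4 genes. In all, the arms of 6 regulators did not overlap in TSC, 4 higher and 2 lower with STM2457, against 55.7% of all tested genes, 27.9% higher and 27.8% lower.

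In EpiSC 7 of the 9 had enough counts for a fold change. None was called, where 1.68% of all tested genes were called, and Gata3, Tead4 and Ets2 had an unadjusted p under 0.05, as had 14.8% of all genes. Tead4 had 7.26 and 6.92 CPM with STM2457 against 4.82 and 4.06 CPM with DMSO in EpiSC. Its treated libraries both lay above the controls (log2 0.68 ± 0.207, 95% interval 0.24 to 1.11, adjusted p = 0.114, edgeR). Ets2 had 48.9 and 43.5 CPM with STM2457 against 34.8 and 35.0 CPM with DMSO (log2 0.40 ± 0.126, 95% interval 0.14 to 0.67, adjusted p = 0.125, edgeR). Gata3 had 2.32 and 3.53 CPM with STM2457 against 1.74 and 1.56 CPM with DMSO, from 48, 82, 35 and 33 counts (log2 0.84 ± 0.297, 95% interval 0.21 to 1.46, adjusted p = 0.175, edgeR). All 3 genes stood apart from their controls without overlap.

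With the replicate block in XEN these 3 regulators were called in EpiSC, where that fit called 17.2% of all tested genes. The adjusted p in edgeR was then 0.000837 for Tead4, 0.00124 for Ets2 and 0.0224 for Gata3, and the folds were 0.68, 0.40 and 0.84. Without the second STM2457 library of EpiSC the fold of Gata3 was 0.48 in the fit without a block. Over all alternatives the adjusted p ranged from 0.000837 to 0.582 for Tead4, from 0.00113 to 0.622 for Ets2 and from 0.0224 to 0.772 for Gata3, and every alternative gave a positive fold for each. All 3 were also called by DESeq2, by the block in all 3 lines and by a fit of the EpiSC libraries alone, which called 8.45%, 13.2% and 29.2% of all genes. Without the filter, where 1.84% of genes were called, Gata3 and Tead4 were. Ets2 was called without the second DMSO library of XEN. Eomes had 56.6 and 60.6 CPM with STM2457 against 54.6 and 55.1 CPM with DMSO in EpiSC (log2 0.10 ± 0.118, adjusted p = 0.774, edgeR). Esrrb had 101 and 93.6 CPM with STM2457 against 104 and 93.1 CPM with DMSO, an overlap (log2 -0.02 ± 0.114, adjusted p = 0.991, edgeR). Tfap2c, at 4.84 and 4.51 CPM with STM2457 against 3.63 and 5.28 CPM with DMSO, overlapped as well (log2 0.07 ± 0.18, adjusted p = 0.933, edgeR). For Gata2, with 0.678 and 0.989 CPM with STM2457 against 0.695 and 0.377 CPM with DMSO, the interval of the log2 difference ran from -0.66 to 1.95. Cdx2 had 4 counts with STM2457 and 1 with DMSO, and Elf5 1 and 1, too few for a fold. Arms without overlap were found for 5 regulators, the 3 named first and Cdx2 and Eomes, all higher with STM2457, against 56.1% of all genes in either direction and 29.6% higher. For Cdx2 this rests on 2 counts in each STM2457 library against 1 and 0 with DMSO, too few to read as a difference.

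In XEN only Eomes, Tead4 and Ets2 had enough counts. None was called, and none had an unadjusted p under 0.05, where 4.15% of all tested genes were called by edgeR; DESeq2 and the blocked fits also called none. Eomes had 13, 15 and 7 counts with STM2457, at 1.44, 1.92 and 0.911 CPM, against 5, 6 and 6 counts with DMSO, at 0.783, 0.972 and 0.732 CPM. The arms overlapped and the log2 difference was 0.79 ± 0.307 (adjusted p = 0.3, edgeR). Tead4 had 63.0, 43.3 and 50.3 CPM with STM2457 against 65.6, 45.5 and 51.2 CPM with DMSO in XEN. Each treated library lay just below the control of the same number, by less than the spread between numbers (log2 -0.05 ± 0.142, adjusted p = 0.941, edgeR). Ets2 had 47.2, 44.1 and 51.7 CPM with STM2457 against 42.6, 36.3 and 46.8 CPM with DMSO, higher in each same-numbered pair but with overlapping arms (log2 0.18 ± 0.11, adjusted p = 0.44, edgeR). None of the 9 regulators had arms without overlap in XEN, against 15.4% of all genes.

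**Figure D2:**
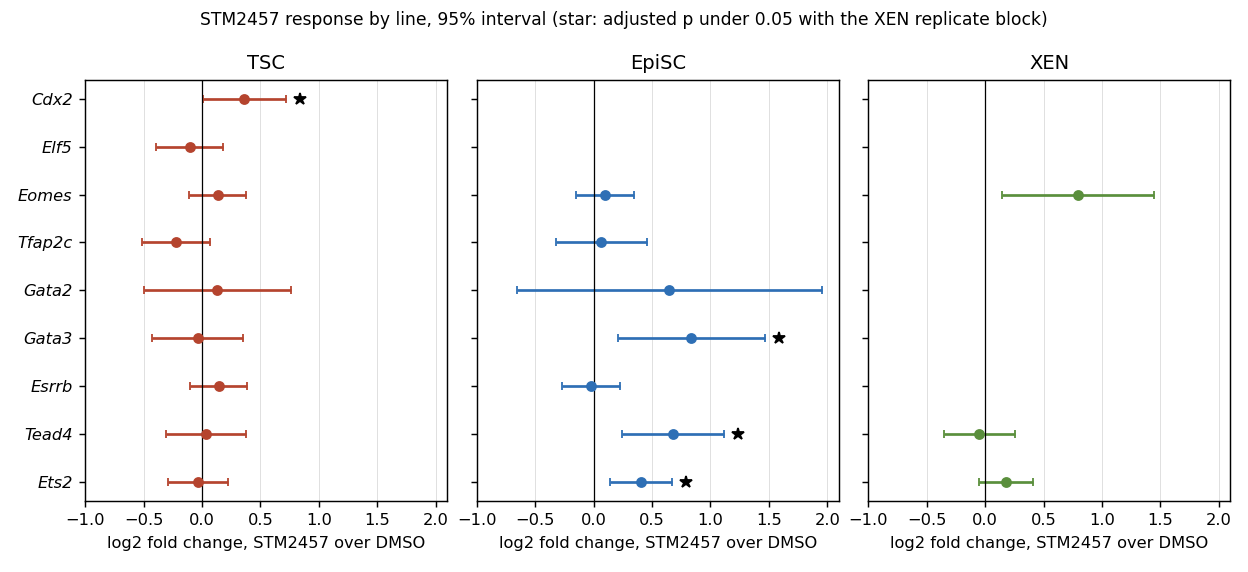
Log2 fold change of each regulator, STM2457 over DMSO, in TSC, EpiSC and XEN with 95% intervals from the fit without a block; rows are empty where a line had too few counts. Stars mark an adjusted p under 0.05 with the replicate block in XEN, reached by Cdx2 in TSC and by Gata3, Tead4 and Ets2 in EpiSC.

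Averaged over the 3 lines, which was possible only for Eomes, Tead4 and Ets2, none was called, where 13.4% of all tested genes were. The mean log2 effect was 0.34 ± 0.116 for Eomes (adjusted p = 0.0794, edgeR), 0.22 ± 0.0995 for Tead4 (adjusted p = 0.173, edgeR) and 0.18 ± 0.0688 for Ets2 (adjusted p = 0.0909, edgeR). All 3 had an unadjusted p under 0.05, as had 25.7% of all genes. With the replicate block in XEN, Tead4 (adjusted p = 0.00541) and Ets2 (adjusted p = 0.00306) were called in edgeR at 0.22 and 0.19, and that fit called 28.7% of all genes. The block in all 3 lines called the same 2 genes, with 25.6% of all genes, and Ets2 alone was called by DESeq2 and with library totals, with 22.6% and 12.5% of all genes. Over all alternatives the adjusted p of the mean effect ranged from 0.00541 to 0.436 for Tead4, from 0.00306 to 0.302 for Ets2 and from 0.035 to 0.296 for Eomes. For Eomes the lowest adjusted p, 0.035 in edgeR, came without the third STM2457 library of XEN, the one with 7 counts. Eomes was called there, with a mean log2 effect of 0.42.

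Whether a line differed from another in its response was tested directly. For Tead4 the effect in TSC minus that in EpiSC was -0.65 ± 0.262 on the log2 scale, for Ets2 -0.44 ± 0.175 and for Gata3 -0.87 ± 0.35. Each had an unadjusted p under 0.05, as had 4.31% of all genes, and an adjusted p of 1 in edgeR, where 0.00543% of all tested genes were called. Without the second STM2457 library of EpiSC the value for Gata3 was -0.52. The effect of Tead4 in EpiSC minus that in XEN was 0.73 ± 0.251 (adjusted p = 0.738, edgeR), where 0.0109% of genes were called. With the replicate block in XEN, Tead4 (-0.65, adjusted p = 0.035) and Ets2 (-0.44, adjusted p = 0.0484) were called in edgeR for TSC minus EpiSC, against 1.49% of all genes. A fit of those 2 lines alone called these genes and Gata3, against 4.23% of all genes. The fit with the replicate block in XEN called Tead4 for EpiSC minus XEN (0.73, adjusted p = 0.0126, edgeR), against 2.18% of all genes, as did the block in all 3 lines, against 0.971%. Over all alternatives the adjusted p for TSC minus EpiSC ranged from 0.0174 to 1 for Tead4 and from 0.0162 to 1 for Ets2, and for EpiSC minus XEN from 0.0126 to 1 for Tead4. For TSC minus XEN no regulator was called in either fit, where 0.00543% of genes were called without the block; the differences of Eomes, Ets2 and Tead4 were -0.66 ± 0.329, -0.21 ± 0.164 and 0.08 ± 0.215.

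The regulators belong to families whose other members can be set beside them. Of 25 paralogues, 20 were tested. In DMSO 8 were called higher and 7 lower in TSC than in XEN, against 36.5% and 36% of all tested genes. Against EpiSC 12 were called higher and 1 lower in TSC, against 27% and 27.4% of all tested genes. In the GATA family Gata2 and Gata3 were highest in TSC. Gata4, a factor of the primitive endoderm, averaged 24.9 ± 0.523 CPM with STM2457 and 22 ± 1.4 CPM with DMSO in TSC, against 629 ± 50.2 and 616 ± 42.3 CPM in XEN. Per kb, Gata4 stood near Gata2 in TSC with DMSO, at 5.64 ± 0.357 against 5.92 ± 0.303 CPM per kb. Gata6, the partner of Gata4 in primitive endoderm, averaged 2.79 ± 0.245 CPM in TSC, 1.08 ± 0.337 CPM in EpiSC and 353 ± 67.6 CPM in XEN in DMSO. In the TEAD family, Tead2 averaged 211 ± 0.276 CPM in TSC, 238 ± 23.4 CPM in EpiSC and 35 ± 7.56 CPM in XEN in DMSO. Tead1 averaged 112 ± 11.2 CPM in TSC, 143 ± 2.84 CPM in EpiSC and 288 ± 60.3 CPM in XEN. Tead3 averaged 83.4 ± 11.9 CPM in TSC, 30 ± 1.78 CPM in EpiSC and 4.16 ± 3.11 CPM in XEN. Of these 4 genes Tead4 was the one with its lowest level in EpiSC. Among ETS genes, Elf1 averaged 17.2 ± 0.575 CPM in TSC, 10.8 ± 0.0532 CPM in EpiSC and 158 ± 10.3 CPM in XEN, and Ets1 averaged 6.85 ± 0.245, 21.2 ± 0.387 and 85.7 ± 20.6 CPM in the same lines. Both were highest in XEN, whereas Elf5 and Ets2 were highest in TSC. Esrra, the paralogue of Esrrb, averaged 41.4 ± 1.08 CPM in TSC, 36.3 ± 1.33 CPM in EpiSC and 38.7 ± 1.4 CPM in XEN.

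**Figure D3:**
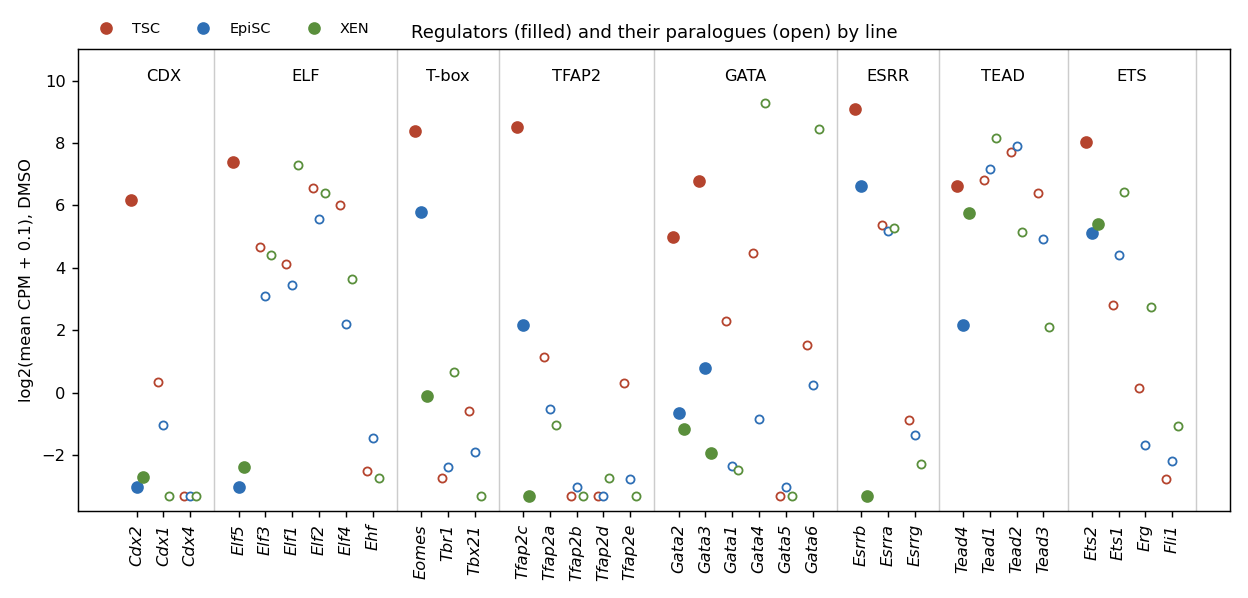
Levels of the 9 regulators (large filled points) and their paralogues (small open points) in DMSO, as log2 of the mean CPM plus 0.1, grouped by family, with TSC in red, EpiSC in blue and XEN in green. The regulators have their highest point in TSC in every family, whereas Gata4, Gata6, Elf1 and Ets1 have theirs in XEN.

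In the fit without a block no paralogue was called with STM2457 in any single line. In the mean effect over the 3 lines Elf1 (log2 0.30 ± 0.0677, adjusted p = 0.00766) and Elf2 (0.18 ± 0.0566, adjusted p = 0.0456) rose and Esrra fell (-0.25 ± 0.0652, adjusted p = 0.0182) in edgeR. That comparison called 13.4% of all tested genes, which holds for each list below. Of the 18 other trophoblast stem cell genes, 14 were higher and 2 lower in TSC than in XEN in DMSO, against 36.5% and 36% of all tested genes. Against EpiSC 16 were higher and 1 lower in TSC, against 27% and 27.4% of all tested genes. In the fit without a block none of them was called with STM2457 in TSC, where their median log2 fold change was 0.07, nor in XEN. In EpiSC 1.68% of all tested genes were called. Klf5, a Krüppel-like factor of trophectoderm and pluripotent cells, rose there to 33.1 ± 1.17 CPM with STM2457, against 21.1 ± 0.15 CPM with DMSO (log2 0.65 ± 0.143, adjusted p = 0.0302, edgeR). In the mean effect over the 3 lines Arid3a, a DNA-binding factor of trophoblast, rose (0.30 ± 0.0902, adjusted p = 0.0377, edgeR). Sall4, a zinc finger factor of stem cells, rose as well (0.26 ± 0.0721, adjusted p = 0.0252, edgeR), but not in EpiSC. There it averaged 90.2 ± 9.49 CPM with STM2457 and 93.7 ± 8.53 CPM with DMSO.

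The Hippo pathway, which controls the TEAD coactivators, held 18 tested genes, and none was called with STM2457 in a single line without the block. Their median log2 fold change was 0.03 in TSC, 0.21 in EpiSC and -0.07 in XEN. The mean effect over the 3 lines called 13.4% of all tested genes. In it the TEAD cofactor gene Vgll3 rose (1.14 ± 0.287, adjusted p = 0.0143, edgeR). Its counts were few outside EpiSC: 13 with STM2457 and 7 with DMSO in TSC, 23 and 6 in XEN, and 665 and 326 in EpiSC. Sav1, encoding a scaffold of the Hippo kinases, fell (-0.20 ± 0.0634, adjusted p = 0.0462, edgeR), but not in EpiSC. There it averaged 45 ± 1.31 CPM with STM2457 and 42.7 ± 3.36 CPM with DMSO. Of 18 genes of FGF and activin signalling, the pathways supplied in the media of TSC and EpiSC, none was called in TSC or EpiSC without the block. In XEN 4.15% of all tested genes were called. Dusp6, a phosphatase that FGF signalling induces and that dampens it, rose there to 15.6 ± 2.83 CPM with STM2457, against 8.22 ± 1.64 CPM with DMSO (log2 0.95 ± 0.156, adjusted p = 0.00247, edgeR). Acvr2b, an activin receptor, fell to 11.9 ± 1.08 CPM with STM2457 in XEN, against 17.9 ± 2.44 CPM with DMSO (log2 -0.59 ± 0.159, adjusted p = 0.0465, edgeR). Over the 3 lines Dusp6 (0.56 ± 0.0837, adjusted p = 0.000356) and the activin receptor gene Acvr2a (0.26 ± 0.0774, adjusted p = 0.0338) rose in edgeR. With the replicate block in XEN the counts of calls in TSC were higher in these lists, in a fit that called 15.4% of all genes: 2 rises and 2 falls among the other trophoblast stem cell genes, 4 and 1 in the Hippo list, 6 and 3 in the FGF and activin list, and 5 and 0 among paralogues. In EpiSC, with 17.2% of all genes called, the counts in the same order were 6 and 0, 8 and 0, 2 and 1, and 4 and 2. In XEN, with 15.8% of all genes called, they were 3 and 2, 1 and 4, 2 and 2, and 1 and 1.

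The part of other cell types' markers in the regulators' values was not tested. The 12 primed pluripotency markers summed to 484 to 489 CPM with STM2457 and to 510 to 548 CPM with DMSO in TSC, against 1730 to 1760 and 1910 to 1940 CPM in EpiSC, with Pou5f1 the one at 0 counts in TSC. Markers of fibroblasts, the source of the conditioned medium, summed to 20.7 to 23.3 CPM with STM2457 and to 15.9 to 17.3 CPM with DMSO over 10 genes in TSC. Col3a1, Lum and Dcn had 0 counts in all 4 libraries. Pdgfrb, the highest of the 10, averaged 15.3 ± 0.788 CPM with STM2457 and 11.8 ± 0.472 CPM with DMSO in TSC. Col1a1, Thy1 and Twist1 had 49 to 109 counts per arm there. The 10 primitive endoderm markers summed to 521 to 527 CPM with STM2457 and to 517 to 540 CPM with DMSO in TSC, against 43800 to 52800 CPM in XEN. The 18 genes of differentiated trophoblast summed to 1580 to 1620 CPM with STM2457 and to 1580 to 1710 CPM with DMSO in TSC. Of these genes 4 had 0 counts with STM2457 and 5 with DMSO. Gcm1, Synb, Prl3b1 and Tpbpa, markers of syncytiotrophoblast, giant cells and spongiotrophoblast, had 0 counts in both arms of TSC, whereas Hand1, a factor of giant cell differentiation that is also found earlier, averaged 1310 ± 33.1 CPM with STM2457 and 1310 ± 79.6 CPM with DMSO. Others of the 18 were present in TSC too. With DMSO Peg10 averaged 231 ± 0.106 CPM there, Flt1 76.6 ± 4.1, Ovol2 11.1 ± 1.04, Nrk 5.04 ± 0.337 and Pcdh12 5 ± 0.536 CPM. In the fit without a block none of the 11 tested was called with STM2457 in any line; with the block in XEN 2 rose in EpiSC, 1 rose and 1 fell in XEN, and none was called in TSC.

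The gene whose profile over the 14 libraries was most like that of each regulator was sought among 14319 tested protein-coding genes outside the list, by the root mean square difference of centred log2 CPM. This measure mainly reads the difference between lines. Esrrb was closest to Sox2, a pluripotency factor that trophoblast stem cells also express, at 0.455, and then to Utf1 at 0.71. Tead4 was closest to Tinagl1 at 0.222 and Procr at 0.276, and Eomes to Aspg at 0.305 and Pxylp1 at 0.341. Cdx2 was closest to Slc30a2 at 0.497 and Cd37 at 0.608, and Elf5 to Cdcp1 at 0.521 and Zfp42 at 0.657. Zfp42 is better known as Rex1, a marker of naive pluripotency, and averaged 128 CPM in TSC, 0.145 CPM in EpiSC and 0.214 CPM in XEN in DMSO. Tfap2c was closest to Cldn3 at 0.659 and Cdh3 at 0.825, Gata2 to Liph at 0.7 and Krt7 at 0.759, and Gata3 to Sema7a at 0.564 and Fxyd5 at 0.615. Ets2 was closest to Adgrd1 at 0.177, a gene of at most 0.666 CPM, and Erbb2 at 0.194. Within the list Cdx2 and Elf5 were the closest pair, at 0.789, followed by Tead4 and Ets2 at 1.29, while Esrrb and Tead4 were the farthest apart at 5.95.

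The m6A mark is placed mostly at GGAC and related letters, in long internal and last exons away from exon junctions. In the longest coding transcripts of GENCODE M21 the regulators held 3.42 (Gata3) to 7.08 (Cdx2) GGAC motifs per kb, with a median of 5.9, against a median of 4.19 over 14314 tested protein-coding genes, and 8 of 9 stood above that median. Cdx2, with 16 motifs in 2261 bases and only 3 exons, was highest. Its 0.88 exon junctions per kb were the fewest, and 8 of 9 regulators lay below the median of 2.76 junctions per kb. Tead4, with 12 exons and 3.58 junctions per kb, was the exception. By longest exon, 6 of 9 stood above the median of 1522 bases over all genes, and Cdx2, at 1289 bases, stood below it. GC content was above the median of 50.55% in 7 of 9, with 57.5% in Cdx2. The part of GC content in the number of GGAC motifs was not tested. Methylation itself was not measured in these libraries. As to counting, Eomes overlaps the antisense gene Gm33460, with 52 counts against 29305 for Eomes in TSC and 10 against 52 in XEN. Gata3 overlaps 9230102O04Rik on its own strand, with 44 counts against 9005 in TSC and 0 against 198 in EpiSC. No source used here states whether counting used strand, so reads of such pairs may be shared. The other 7 regulators had no exon overlap.

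**Figure D4:**
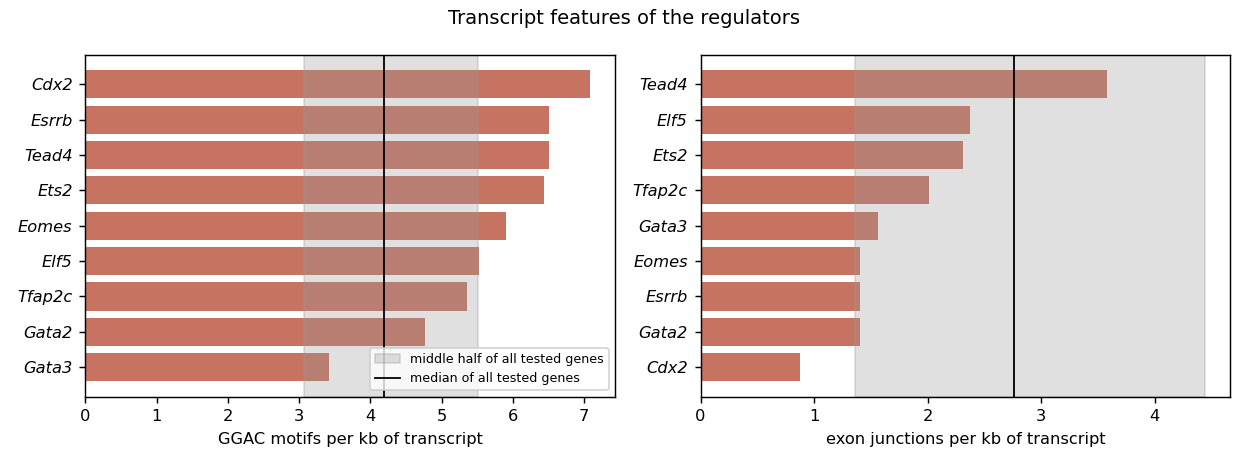
GGAC motifs per kb and exon junctions per kb in the longest coding transcript of each regulator, with the median and the quartile range of all tested protein-coding genes as a line and a grey band. A total of 8 bars exceed the median for GGAC, and Tead4 alone exceeds it for junctions.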

How the data were processed

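Per the labels, total RNA was isolated with TRIzol and made into libraries with a stranded total RNA kit. Per the submitters' processing notes, FastQC, Trim Galore, STAR, featureCounts and build GRCm39 (mm39) were used; no versions are given. As deposited, the values are whole-number gene counts under Ensembl identifiers, 1 column for each of 14 libraries, not normalized by the authors. Every column was used.

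Symbols, exon lengths and transcripts were taken by identifier from GENCODE M21 on GRCm38, so no coordinates were joined to the counts; 3333 identifiers had no name. Promoters are from RefSeq on GRCm38.p6.

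All libraries were fitted in 1 model of 6 groups in edgeR 4.0.16 under R 4.3.3, with TMM scaling, filterByExpr (minimum count 10, minimum total 15) and the robust quasi-likelihood F test, two-sided, on the shared spread of all lines. The fit was tested on simulated data. No fold is given for a regulator unless, in each line of a treatment contrast, an arm summed to at least 15 counts, or, between lines, a group did; this rule was chosen after the counts were seen. SEs were derived from the fold change and its F statistic. For low genes the test bounds p from below by counting error, so an interval and a p can differ. For lists other than the regulators, values follow the fit without a block unless stated.

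Alternatives were DESeq2 1.42.0, RLE size factors, library totals, scaling to ribosomal protein genes, no filter, only the lines compared, a block for replicate number and the omission of each library. Replicate numbers are from the sample titles. They were taken to pair the samples in XEN, since each same-number correlation exceeded 0.1, and not in TSC and EpiSC.

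All 9 regulators are named throughout. Of the other lists, genes called with STM2457 are named (at most 4 per list and comparison), with levels of paralogues and lineage markers that average at least 5 CPM in a group and defining markers at 0, and the 2 nearest profiles per regulator. The members and lists were chosen with earlier results of these data known. One called gene of the signalling list is not reported here.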

Additional observations from a re-analysis of the deposited data

How the results depend on the processing

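In TSC, where 0 of 9 regulators were called with STM2457, 3 were called when only the TSC libraries were fitted (Cdx2, Tfap2c and Esrrb), 1 with the replicate block in all 3 lines and 1 with it in XEN. In EpiSC, against 0, DESeq2 gave 3, no filter 2, the EpiSC libraries alone 3, the block in all lines 3, the block in XEN 3, and leaving out 1 library between 0 and 1 (Ets2, without the second DMSO library of XEN). For the mean effect, against 0, DESeq2 gave 1, library totals 1, the blocks 2 and 2, and leaving out 1 library between 0 and 1: Ets2 without the third DMSO and Eomes without the third STM2457 library of XEN. For TSC minus EpiSC, against 0, the 2 lines alone gave 3 and the block in XEN 2, and for EpiSC minus XEN each block gave 1. Fitting only the lines compared gives no mean effect over all lines. The cause of these differences was not tested.

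Scaling to ribosomal protein genes moved the median of all genes by 0.11 in TSC, 0.12 in EpiSC and -0.05 in XEN on the log2 scale with STM2457, and in DMSO by -1.04, -0.27 and -0.76 for TSC against XEN, TSC against EpiSC and EpiSC against XEN. It reversed the sign of Elf5 (0.033), Gata3 (0.10) and Ets2 (0.11) in TSC, Esrrb in EpiSC (0.11), and in DMSO Tead4 for TSC against XEN (-0.18) and Gata2 for EpiSC against XEN (-0.12). Library totals reversed Gata3 (0.011) and Ets2 (0.016) in TSC and Ets2 for EpiSC against XEN (0.03). Leaving out 1 library gave both signs for Gata3 (-0.124 to 0.054), Tead4 (-0.038 to 0.103) and Ets2 (-0.126 to 0.067) in TSC, Tead4 in XEN (-0.21 to 0.11), Tfap2c (-0.18 to 0.36) and Esrrb (-0.109 to 0.062) in EpiSC, Tead4 for TSC minus XEN (-0.079 to 0.241) and Eomes for TSC minus EpiSC (-0.01 to 0.11). Of 1315 values of single regulators, 1251 kept their sign and side of the threshold and 21 changed sign. The others kept their sign, and of these 43 gained a call and 0 lost one. Among the sign changes, Tead4 for TSC against XEN also lost its call, with scaling to ribosomal protein genes (adjusted p = 0.329, edgeR). Without the third DMSO library of XEN, which held all counts of Gata3 there, its fitted difference from that line grew to 13.76 for TSC and 7.71 for EpiSC. The depth of XEN limits the regulators with few counts there.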

Other observations

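Primitive endoderm markers had mostly positive folds with STM2457 in TSC: 8 of 10, against 46.9% of all genes, with a median log2 fold change of 0.43. Among them Sox17, Sox7 and Dab2 had few counts in TSC, 4, 14 and 19 with DMSO. Summed over the 10 markers, the level in TSC was 521 to 527 CPM with STM2457 and 517 to 540 CPM with DMSO. None of the 10 was called in TSC by edgeR, and 4 had an unadjusted p under 0.05, as had 13.4% of all genes. The number called was 1 in DESeq2 and 5 in the fit with the block in XEN, which called 15.4% of all genes. Dab2, an endocytic adaptor of endoderm, averaged 1.27 ± 0.23 CPM with STM2457 and 0.467 ± 0.163 CPM with DMSO in TSC, against 718 ± 167 and 717 ± 57.5 CPM in XEN. Foxa2, an endoderm factor, averaged 4.25 ± 0.0632 CPM with STM2457 and 2.53 ± 0.529 CPM with DMSO in TSC. In the mean effect over the 3 lines Dab2 (log2 0.64 ± 0.153, adjusted p = 0.0101) and Foxa2 (0.41 ± 0.125, adjusted p = 0.0388) rose in edgeR. That comparison called 13.4% of all tested genes. The log2 fold change of Dab2 in XEN was 0.001 ± 0.137. In XEN itself none of the 10 markers was called without the block and 2 rose with it. In EpiSC Foxa2, Dab2 and Lama1 had positive folds and the other markers negative ones.

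Of the 12 primed pluripotency markers, 1 was called in EpiSC, where 1.68% of all tested genes were. Pou3f1, a POU factor of the epiblast, rose to 171 ± 2.03 CPM with STM2457, against 121 ± 6.24 CPM with DMSO (log2 0.50 ± 0.109, adjusted p = 0.0391, edgeR). The same gene averaged 211 ± 5.83 CPM with STM2457 and 242 ± 7.15 CPM with DMSO in TSC and had 0 counts in XEN. The difference of the EpiSC from the TSC effect was not called.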
